A study of Drosophila melanogaster with 2 samples.

Results

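The Enhancer of split complex is a run of small genes on chromosome arm 3R of Drosophila melanogaster. Peaks of the transcription factor Oli were mapped for 10 of its genes, chosen by symbol from Ensembl release 115 out of 13945 protein-coding genes on the 6 arms 2L, 2R, 3L, 3R, 4 and X. The data were chromatin immunoprecipitation with sequencing (ChIP-seq), in which DNA held to a protein is recovered with an antibody and sequenced. Whole embryos of both sexes, collected 6 to 18 h after laying, carried a transgene that fuses GFP to the C terminus of Oli, and an antibody to GFP was used although the antibody entry in the labels reads Oli. There was 1 group of 2 biological replicates and no second condition, so values are described and not tested. A peak in whole embryos does not say which cells gave it, and the fusion protein was read in place of the unmodified one.

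As background, Oli is a basic helix-loop-helix (bHLH) factor of the Olig family, expressed in embryonic motor neurons among other neurons, and bHLH factors bind E-boxes, written CANNTG. Genes of the complex are textbook targets of Notch signalling: when Notch is activated, its intracellular part joins the DNA-binding protein Su(H) and switches them on. The HLH members encode bHLH-Orange repressors that recruit the co-repressor Groucho and hold back proneural genes in cells that will not become neural. The BFM members encode Bearded family proteins, which inhibit Neuralized, the ubiquitin ligase that activates the Notch ligand Delta.

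The 10 genes were 7 HLH and 3 BFM members. In map order they were E(spl)mdelta-HLH, E(spl)mgamma-HLH, E(spl)mbeta-HLH, E(spl)malpha-BFM, E(spl)m2-BFM, E(spl)m3-HLH, E(spl)m4-BFM, E(spl)m5-HLH, E(spl)m7-HLH and E(spl)m8-HLH. Each has 1 annotated transcript with 1 exon. They span 3R:25997621-26041008 in Release 6 of the genome (dm6), a stretch of 43.4 kb that holds 12 protein-coding genes, the remaining ones being Kaz-m1 and E(spl)m6-BFM. A peak was tied to a gene that has the nearest protein-coding start to the summit or holds the summit in its body. Peaks came from 4 lists: the list the authors name as IDR-thresholded (IDR list, the 6496 peaks with the highest signal in the pooled list), the pooled list and a list for each replicate (30000 peaks each). Ranks run from 1, the peak with the highest signal in its list, and signal is the deposited peak height, whose scale differs between lists.

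Oli peaks in the IDR list were tied to 4 of the 10 members: the repressor genes E(spl)m3-HLH and E(spl)m7-HLH, and the Bearded family genes E(spl)malpha-BFM and E(spl)m2-BFM. Among all coding genes 27.5% had an IDR peak. These 4 members held 5 peaks, all upstream of the start and between coding genes, from 369 to 1813 bp away. The other 6 members, E(spl)mdelta-HLH, E(spl)mgamma-HLH, E(spl)mbeta-HLH, E(spl)m4-BFM, E(spl)m5-HLH and E(spl)m8-HLH, had none. By class the count was 2 of 7 HLH and 2 of 3 BFM members.

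The DNA under the 5 IDR summits is shown to let their base composition and motifs be read directly. Each run is 151 bases of the RefSeq Release 6 genome centred on the summit, 5′ to 3′ on the strand of the member. Capitals mark E-boxes and Su(H) sites.
E(spl)m3-HLH, summit at -427 bp, 3R:26021321-26021471, plus strand: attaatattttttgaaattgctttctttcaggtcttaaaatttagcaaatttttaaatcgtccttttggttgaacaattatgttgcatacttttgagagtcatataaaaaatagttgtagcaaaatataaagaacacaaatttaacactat
E(spl)m3-HLH, summit at -1350 bp, 3R:26020398-26020548, plus strand, over an exon of lncRNA:CR43644: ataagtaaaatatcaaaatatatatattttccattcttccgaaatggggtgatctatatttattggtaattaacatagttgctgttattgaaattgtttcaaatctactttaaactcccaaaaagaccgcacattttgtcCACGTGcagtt
E(spl)m7-HLH, summit at -369 bp, 3R:26036594-26036744, plus strand: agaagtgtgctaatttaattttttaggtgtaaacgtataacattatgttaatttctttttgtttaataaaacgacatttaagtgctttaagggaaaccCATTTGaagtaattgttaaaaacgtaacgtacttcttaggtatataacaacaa
E(spl)malpha-BFM, summit at -1813 bp, 3R:26009005-26009155, plus strand: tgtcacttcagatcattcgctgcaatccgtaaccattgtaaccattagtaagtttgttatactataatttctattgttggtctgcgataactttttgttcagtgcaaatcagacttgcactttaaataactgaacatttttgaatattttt
E(spl)m2-BFM, summit at -519 bp, 3R:26017914-26018064, minus strand, over an exon of lncRNA:CR43643: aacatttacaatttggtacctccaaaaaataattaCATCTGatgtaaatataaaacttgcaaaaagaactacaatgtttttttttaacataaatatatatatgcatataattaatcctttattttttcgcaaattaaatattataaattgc
No run holds a Su(H) site, and the windows at E(spl)m2-BFM, E(spl)m7-HLH and the distal E(spl)m3-HLH summit hold 1 E-box each. It reads CATCTG at E(spl)m2-BFM. At E(spl)m7-HLH it reads CATTTG. At the distal E(spl)m3-HLH summit it reads CACGTG and stands more than 50 bp from the summit.

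E(spl)m3-HLH had the strongest peak of the 10 members in each list. This peak, at 3R:26021161-26021645, had a signal of 1764 and rank 175 in the pooled list. In replicate 1 its signal was 1169 at rank 112, and in replicate 2 it was 593 at rank 351. Its summit lay 427 bp upstream of the start. In replicate 2 the same stretch held another peak, 250 bp upstream of the start, with a signal of 178 at rank 2347.

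A second IDR peak of E(spl)m3-HLH, at 3R:26020396-26020565, had its summit 1350 bp upstream. Its pooled signal was 590 at rank 1299. Replicate 1 had 342 at rank 1195 and replicate 2 had 259 at rank 1408, so both replicates placed it far below the main peak of the same gene. The long non-coding RNA gene lncRNA:CR43644 starts 603 bp from this summit and 320 bp from the main one, nearer than E(spl)m3-HLH in both cases. Counted by the nearest start of any gene, coding or not, E(spl)m3-HLH therefore had no IDR peak.

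E(spl)m7-HLH had 1 IDR peak, at 3R:26036507-26036822, with a pooled signal of 1054 at rank 507. Replicate 1 had 650 at rank 406 and replicate 2 had 413 at rank 676. The pooled summit lay 369 bp upstream of the start. In replicate 1 an overlapping second peak, 190 bp upstream, had a signal of 120 at rank 4664.

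The remaining HLH members were weak or without a peak in the lists. E(spl)mbeta-HLH came nearest to the IDR list: its strongest pooled peak had a signal of 99.1 at rank 10399, with the summit 80 bp inside its exon. In replicate 1 its strongest peak had 66.6 at rank 9050 but lay 2848 bp past the start, and in replicate 2 it had 43.5 at rank 10772 and lay 100 bp upstream. The lists thus placed the strongest peak of E(spl)mbeta-HLH at different sites. The lowest signal in the IDR list was 155.

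E(spl)m8-HLH had a pooled peak of signal 66.0 at rank 17022, 131 bp upstream of its start, and a replicate 2 peak of 34.7 at rank 14167, 129 bp upstream. Replicate 1 had no peak tied to it. E(spl)m5-HLH had a pooled peak of 62.8 at rank 18187 inside its exon, 449 bp past the start. Replicate 1 had 48.2 at rank 13499, 415 bp past the start, while the strongest replicate 2 peak, 37.8 at rank 12790, lay 2118 bp past it. E(spl)mgamma-HLH had 59.3 at rank 19696 in the pooled list, 37.6 at rank 19018 in replicate 1, and no tied peak in replicate 2. For E(spl)m8-HLH and E(spl)mgamma-HLH, presence in the lists varied between replicates.

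E(spl)mdelta-HLH had no tied peak in any of the 4 lists. It shares an intergenic stretch with CG43116, which is read the other way, and an IDR peak at 3R:25997102-25997410 sits between them. The summit was 280 bp from the start of CG43116 and 345 bp from that of E(spl)mdelta-HLH, so the peak was tied to CG43116. Its signal was 816 at rank 764 in the pooled list, 426 at rank 826 in replicate 1 and 387 at rank 737 in replicate 2. On distance to its own start, this summit was closer than any IDR summit tied to a member.

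Among the Bearded family members, E(spl)malpha-BFM had its IDR peak at 3R:26008938-26009239, 1813 bp upstream, the most distant of the 5. The pooled signal was 1091 at rank 474. Replicate 1 had 580 at rank 483 and replicate 2 had 517 at rank 447, the closest pair of ranks among the member peaks. E(spl)m2-BFM had its peak at 3R:26017938-26018155, 519 bp upstream, with a pooled signal of 813 at rank 768. Replicate 1 had 485 at rank 669 and replicate 2 had 350 at rank 865. E(spl)m4-BFM had a pooled peak of 55.7 at rank 21538 inside its exon and a replicate 2 peak of 25.3 at rank 21724, and no tied peak in replicate 1.

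All 5 member IDR peaks overlapped a peak of each replicate. The IDR list was itself derived from both replicates, so this overlap is not independent evidence. E(spl)m3-HLH ranked first and E(spl)m2-BFM last of the 4 genes in the pooled list and in both replicates. E(spl)m7-HLH stood above E(spl)malpha-BFM in replicate 1 and below it in replicate 2, so their order was not resolved by 2 replicates.

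**Figure D1:**
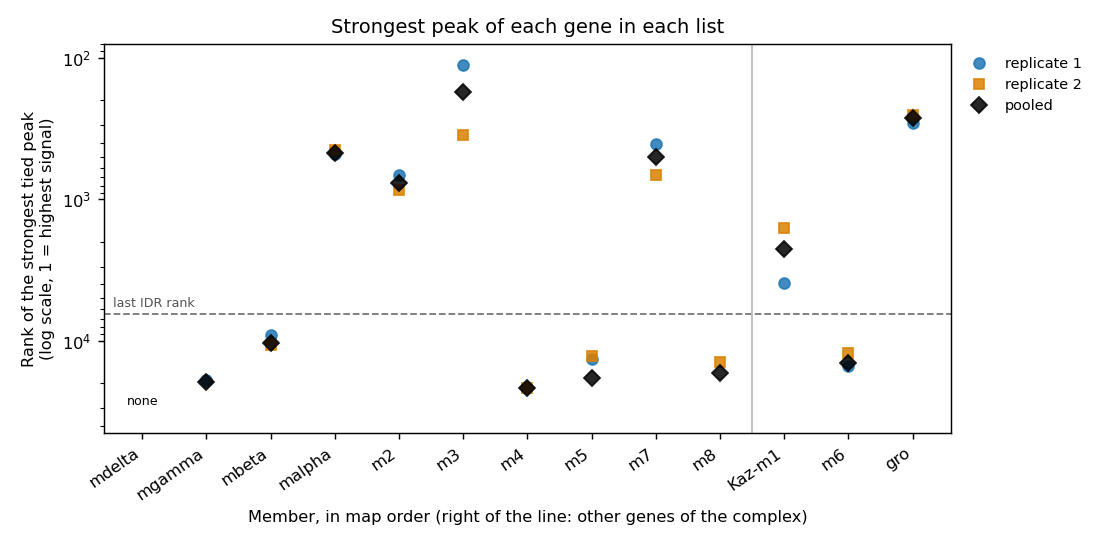
Rank of the strongest tied peak (log scale, rank 1 at the top) of each member in map order and, right of the line, of Kaz-m1, E(spl)m6-BFM and gro, with circles for replicate 1, squares for replicate 2 and diamonds for the pooled list. E(spl)malpha-BFM, E(spl)m2-BFM, E(spl)m3-HLH and E(spl)m7-HLH stand above rank 1000 in each list, the members without an IDR peak lie below the dashed line at rank 6496, and E(spl)mdelta-HLH has no tied peak.

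In the pooled list 9 of 10 members had a tied peak, against 55.6% of all coding genes, with 21 peaks of which 16 were weaker than the IDR list. Replicate 1 had 19 peaks tied to 7 members and replicate 2 had 20 peaks tied to 8. Among all coding genes 56.3% had a peak in replicate 1 and 58.1% in replicate 2. A gene with more sequence nearer to its start than to any other can collect more peaks, and the members' territories ran from 1428 bp at E(spl)mdelta-HLH to 5521 bp at E(spl)mbeta-HLH. E(spl)mdelta-HLH and E(spl)m8-HLH were in class 2 and class 3 of 10 equal classes of territory length, counted from the shortest, and the other members in class 5 or 6, near the middle. Among coding genes in the same class as a member, the share with an IDR peak lay between 14.2% and 21.9%.

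Along the map, the IDR summits stood in groups. The members' span held 7 IDR summits, 5 tied to members and 2 to Kaz-m1, a gene with a Kazal domain. This was 1.61 per 10 kb in the span, against 0.464 on 3R and 0.485 over the 6 arms. Of 3082 windows of this length tested along the arms, 172 (5.58%) held at least as many, and the mean was 2.11 per window. The span is rich in genes: the 232 windows with at least as many coding starts had a median of 3 IDR summits. The pooled list gave 5.99 peaks per 10 kb in the span and 2.22 on 3R.

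The longest stretch without an IDR summit ran for 15273 bp, between the E(spl)m3-HLH and E(spl)m7-HLH peaks, and holds E(spl)m4-BFM, E(spl)m5-HLH and E(spl)m6-BFM. Its 8 pooled peaks reached no higher than rank 14289. The next, of 11804 bp, ran between the CG43116 and E(spl)malpha-BFM summits and holds E(spl)mdelta-HLH, E(spl)mgamma-HLH and E(spl)mbeta-HLH. Its 6 pooled peaks reached rank 10399. Such gaps are common: the median gap on 3R was 7520 bp, and 32.3% of 1487 gaps were as long as the first and 39.8% as long as the second.

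**Figure D2:**
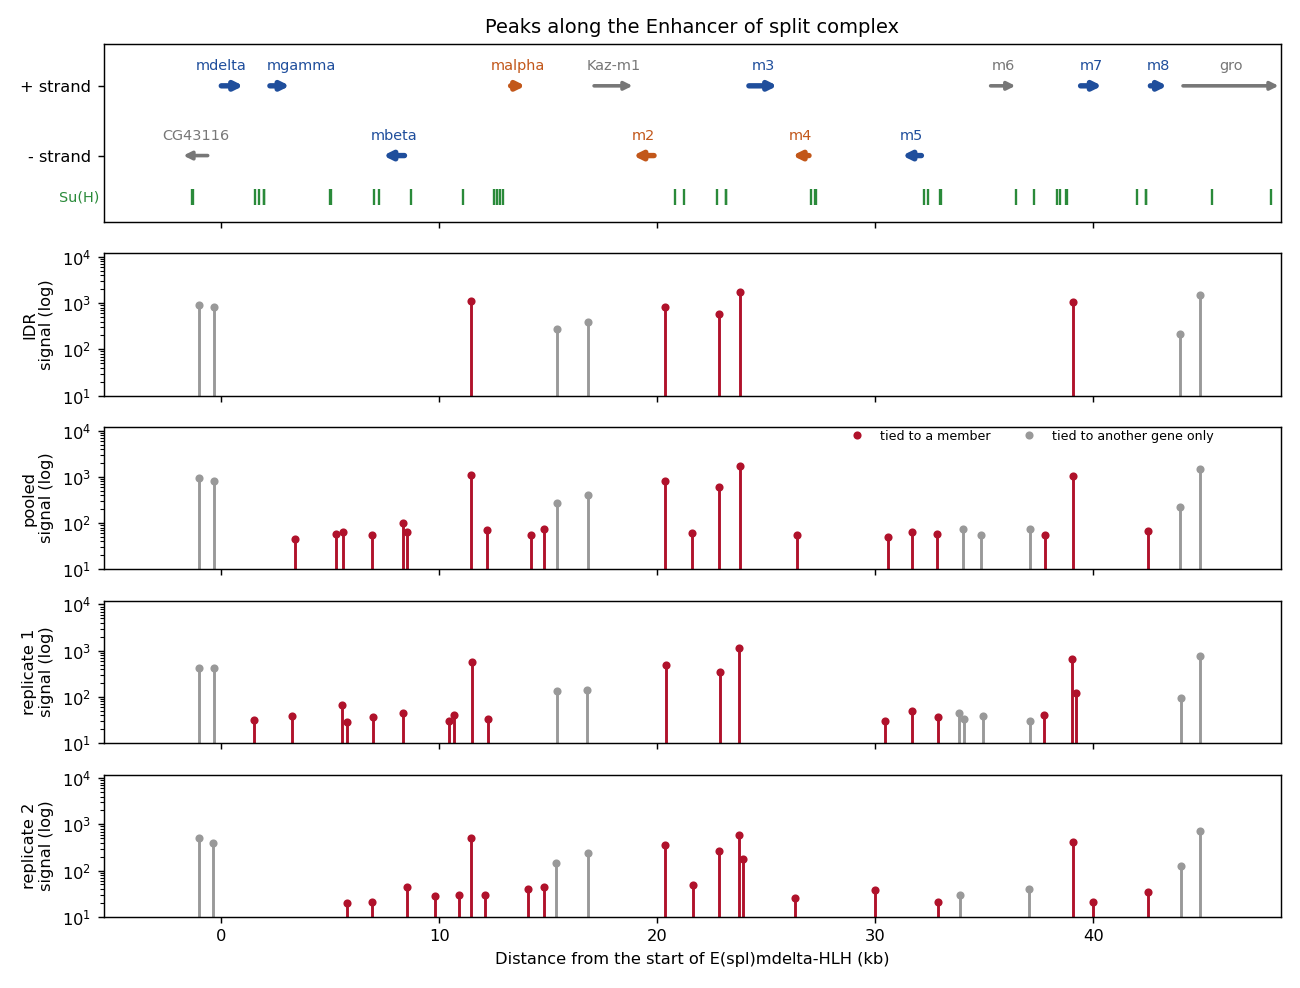
Top, genes on each strand (HLH members blue, BFM members orange, other genes grey) with Su(H) sites as green ticks, and below, peak signal (log scale) in the IDR, pooled, replicate 1 and replicate 2 lists, against distance from the start of E(spl)mdelta-HLH in kb. Red peaks are tied to a member and grey ones to another gene only. Tall peaks recur at the same places in all lists and leave the stretches of 11804 and 15273 bp with weak peaks only.

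The other genes of the complex were read from the same lists. Kaz-m1 had IDR peaks with summits 294 and 1697 bp upstream, of pooled signal 397 and 274. E(spl)m6-BFM, a Bearded family gene, had none, and its strongest pooled peak had 75.6 at rank 14289. The gene gro, which encodes Groucho and borders the members, had an IDR peak 155 bp upstream of a start with a pooled signal of 218 at rank 4566. A stronger one lay in its intron, 132 bp upstream of another annotated start of gro. It had 1465 at rank 267, with 770 at rank 288 in replicate 1 and 702 at rank 254 in replicate 2. In the pooled list and replicate 1 that peak stood below the main E(spl)m3-HLH peak, and in replicate 2 above it.

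Relatives outside the complex gave a further description. Of 6 Bearded family genes listed, 4 were matched in the annotation, and 0 of them had an IDR peak, against 27.5% of all coding genes. Their best pooled ranks were 8757 for Brd, 8664 for Tom, 10903 for Ocho and 10390 for BobA. In that order, the summits lay 650, 7994, 99 and 10895 bp from a start of the gene. With so few genes, neither this count nor the next is set apart from that share. Of 6 bHLH-Orange genes elsewhere, 3 had an IDR peak: hry (hairy), with 6 peaks and a best rank of 2272, Sidpn at rank 2826 and cwo (clockwork orange) at rank 827. These best summits lay 16151, 733 and 5640 bp from a start of the gene, against at most 1813 bp at member IDR peaks. Member territories, of at most 5521 bp, limit how far a tied summit can lie, so these distances are not like for like. The genes dpn (deadpan), Hey and Hesr had none, with best pooled ranks of 8786, 23050 and 23565. The best of these relatives, cwo, was at rank 1009 in replicate 1 and 714 in replicate 2, so its order against E(spl)m2-BFM, at 669 and 865, differed between replicates.

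Base composition at the member summits was low in G and C within richer flanks. In windows reaching 50 bp to either side, the 5 member summits had 25.7 ± 5.98% GC (mean, SD over peaks, n = 5), and the other IDR summits had 30.9 ± 8.21% (n = 6491), a difference smaller than either SD. The same windows moved 500 bp to either side had 50.3% at the member peaks and 43.5% at the others. The fall at the summit was 24.6 ± 8.26 percentage points at member peaks and 12.7 ± 11.1 at the others. This difference is a little larger than either SD and rests on 5 neighbouring peaks. By peak, the summit GC was 15.8% at E(spl)m2-BFM, 25.7% and 28.7% at the main and distal E(spl)m3-HLH peaks, 26.7% at E(spl)m7-HLH and 31.7% at E(spl)malpha-BFM. Among the 5 member peaks the fall was shallowest at E(spl)m7-HLH, with 10.9 points, and deepest at E(spl)m2-BFM, with 33.2 points. IDR peaks of neighbouring genes, counted among the others, also showed a fall. It was 33.7 and 20.3 points at Kaz-m1, 19.8 and 22.8 at gro, and 16.3 and 22.8 at CG43116. A deep fall was thus not particular to the members.

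**Figure D3:**
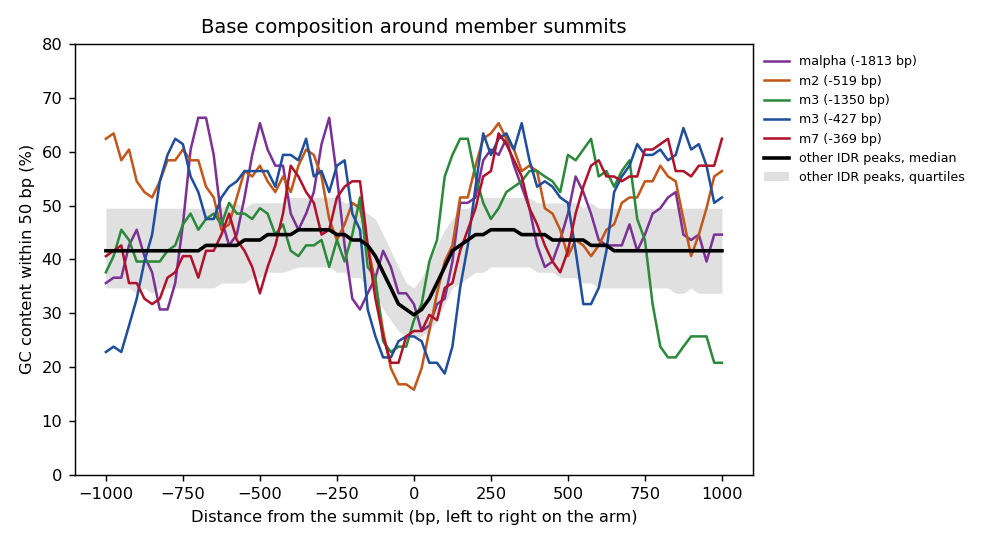
GC content within 50 bp of each position (%) against distance from the summit in bp, for the 5 member IDR peaks (coloured lines) and the other 6491 IDR peaks (black, median; grey, lower to upper quartile). At the summit the member lines lie between 15.8% and 31.7%.

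Member peaks had signals from 590 to 1764. Their median signal was 1054, against 295 for the other IDR peaks, and their median rank was 507 against 3251. The median width was 302 bp against 416 bp, but the strongest member peak, the main one of E(spl)m3-HLH, was 485 bp wide. Every pooled peak on the map weaker than the IDR list was exactly 416 bp wide. The contrast in width is therefore not separate from that in signal. The median distance to the nearest coding start was 519 bp against 1590 bp, in a span where close coding starts limit it. All 5 lay upstream of that start, as did 56.7% of the others, and 2 of 5 lay within 500 bp of it, as did 33.0% of the others. With 5 neighbouring peaks, these are descriptions of single sites.

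Motifs were searched on both strands within 50 bp of the summit. An E-box, CANNTG, was present at 2 of 5 member summits, those of E(spl)m2-BFM and E(spl)m7-HLH, and at 32.3% of the other IDR summits. The member count was 0 within 25 bp and 4 within 100 bp. The share of other IDR summits was not counted at these distances, so 32.3% is no background for them. The N-box CACNAG, which bHLH-Orange repressors bind, was at 0 member summits and 7.87% of the others. TATAAA was at 2 member summits and 26.8% of the others. GAGAG was at 1 member summit and 8.09% of the others.

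Su(H) sites, the DNA signature of the complex, were mapped beside the peaks as CGTGGGAA, CGTGAGAA, TGTGGGAA or TGTGAGAA. The span held 36 of them, 8.3 per 10 kb, against 1.05 per 10 kb on 3R. Only 1 of the 36 lay within 250 bp of an IDR summit, 126 bp from the distal E(spl)m3-HLH summit, and 26 lay more than 1000 bp from any. Inside IDR peaks there were 0. The share of the span at each of these distances was not measured, so whether sites and summits lie apart was not tested. From the other member summits the nearest site was 271 bp away at E(spl)m7-HLH, 393 bp at E(spl)malpha-BFM, 442 bp at E(spl)m2-BFM and 616 bp at the main E(spl)m3-HLH peak. At the summits themselves, within 50 bp, a site was found at 0 of 5 member peaks and 0.678% of the others.

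Some Su(H) sites stood as facing pairs, one on each strand and reading towards each other, with starts at most 40 bp apart, a measure chosen after the site map was seen. The span held 7 of the 9 such pairs on 3R and of the 24 on the 6 arms. An eighth lay in CG43116, within 5 kb of the span. In 6 of the 7 pairs the starts were 25 bp apart. The pairs upstream of E(spl)m3-HLH, at 3R:26020751-26020783, and of E(spl)m7-HLH, at 3R:26036369-26036401, lay 294 and 284 bp from the nearest IDR summit. The 5 others, 2 of them nearest to E(spl)mgamma-HLH and 1 each to E(spl)m4-BFM, E(spl)m5-HLH and E(spl)m8-HLH, lay 1549 to 6053 bp from one. The pair at E(spl)m5-HLH, 3R:26030597-26030634, lay inside a weaker peak of the pooled list and of both replicates.

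E(spl)m8-HLH shows such a pair close to a start that has no IDR peak. The pair lies inside the weaker pooled peak of this gene, at 3R:26039901-26040316, and inside its replicate 2 peak. The 250 bases upstream of the E(spl)m8-HLH start are given on the plus strand, with the 2 Su(H) sites and 1 E-box in capitals.
E(spl)m8-HLH, 3R:26039990-26040239, plus strand: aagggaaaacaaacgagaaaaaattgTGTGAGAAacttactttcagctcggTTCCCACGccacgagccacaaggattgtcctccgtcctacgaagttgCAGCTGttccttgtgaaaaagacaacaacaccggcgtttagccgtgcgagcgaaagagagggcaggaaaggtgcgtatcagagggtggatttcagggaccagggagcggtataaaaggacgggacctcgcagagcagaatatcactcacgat
The Su(H) sites begin 224 and 199 bp upstream of the start, and the E-box, CAGCTG, 152 bp upstream.

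In promoter windows from 250 bp before to 50 bp after the start, Su(H) sites were found in 3 of 10 members, E(spl)m4-BFM, E(spl)m5-HLH and E(spl)m8-HLH, and in 460 of 13945 coding genes (3.3%). These 3 members had no IDR peak, as was so for 6 of the 10 members. How many of the 460 genes had an IDR peak was not counted, so a link between site and peak was not tested. Windows with 2 sites or more numbered 11 among all coding genes (0.0789%), and that of E(spl)m8-HLH was one of them. TATAAA was in 8 of 10 member windows and 45.3% of all, GAGAG in 7 and 30.3%, and the N-box in 5 and 29.9%. E-boxes were in 6 member windows and 77.5% of all. E(spl)m3-HLH, E(spl)malpha-BFM and E(spl)m2-BFM, which had IDR peaks farther upstream, were among the 4 members with no E-box in this window. E(spl)m7-HLH, whose IDR peak also had its summit farther upstream, had 3. Promoter E-boxes were not compared between coding genes with and without an IDR peak.

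**Figure D4:**
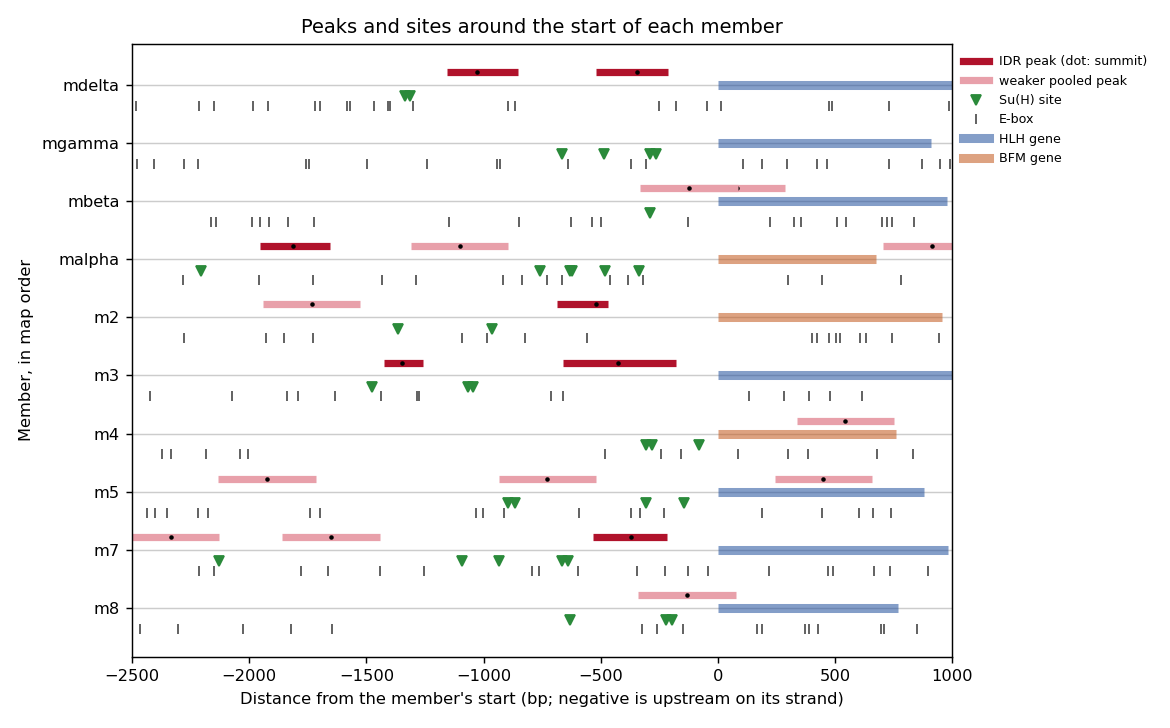
One row per member, from 2500 bp before to 1000 bp after its start, with IDR peaks in dark red, weaker pooled peaks in pale red, summits as dots, Su(H) sites as green triangles, E-boxes as ticks and the gene as a thick bar. No Su(H) site of the span lies inside an IDR peak, and the IDR peaks in the row of E(spl)mdelta-HLH are tied to CG43116.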

How the data were processed

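Peak lists of Oli-GFP ChIP-seq from 2 biological replicates of whole embryos were used. The authors deposited for each peak a signal value, the height given by the peak caller; the lists are on dm6, and replicate and pooled lists were derived from alignments and 1 shared control, per the file notes and the labels. DNA was sonicated to 200 to 800 bp, per the labels. Aligner, caller and IDR threshold: not given in the sources used here. Because read counts are not part of a peak list, depth is unknown and no counting interval is given. The age of 6 to 18 h is from the source description, since another age entry in the labels is garbled.

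The IDR list equals the strongest 6496 pooled peaks, so its signals are the pooled ones. Peaks were tied to genes by nearest coding start (all genes tied for nearest count) or by the gene body, in Ensembl release 115. A peak was found in a replicate when at least 1 bp was shared. Sequence came from the RefSeq Release 6 genome, whose arm lengths match. Kaz-m1 and hry were matched through synonyms, and BobB and BobC were not matched. Tying and motif search were tested on simulated data. Python 3.11.15, numpy 2.4.6, pandas 2.3.3 and matplotlib 3.10.9 were used. All 10 members are named, with the other genes of the complex, its neighbours and both families. Members and lists were chosen with earlier results of these data known. Alternatives changed the peak list, the tie rule, windows and replicates. With 1 group there was no comparison to test.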

Additional observations from a re-analysis of the deposited data

How the results depend on the processing

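The same 4 members had an IDR peak with only the stronger IDR peaks (the upper 50% by signal), with the strongest 6496 peaks of either replicate alone and with ties by nearest start only, and a pooled list of 2 times the IDR length added E(spl)mbeta-HLH. Of 13945 coding genes, 3830 had an IDR peak. Their number was 5505 with the longer pooled list, 3913 without replicate 1 and 3731 without replicate 2. With ties by nearest coding start only it was 3592, and by nearest start of any gene 3586. Coding genes with a peak numbered 2402 with the stronger IDR peaks and 1911 with ties by gene body only. Under that last rule, members with a peak and peaks tied to members were both 0. With the nearest start of any gene, peaks tied to members numbered 3 and members 3, since both E(spl)m3-HLH peaks went to lncRNA:CR43644. Summits near a member start numbered 0 within 200 bp. E-boxes were at 0 member summits within 25 bp and at 4 within 100 bp, with no share of other IDR summits counted at these distances. Mean GC at member summits was 28.2% with that longer pooled list and 28.5% to 30.4% with 1 replicate left out. Each of these lists gave 6 peaks tied to members. The other summits of the IDR list had 30.9%, but the other summits of these lists were not measured. No paired analysis was possible because there is 1 group. Depth is unknown, so absence from a list does not show absence of binding.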
